A study of Mus musculus with 8 samples.

Results

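Txnip, the 4 arrestin-domain genes Arrdc1, Arrdc2, Arrdc3 and Arrdc4, and the transcription factor genes Mlxip, Mlxipl and Klf10 were followed across 3 media in a mouse liver progenitor cell line. The set was chosen by gene symbol, through the RefSeq accession that the array files give each probe, and with the signals of these same arrays already known. It holds 8 of the 20660 genes that could be named on the array. The levels and differences of these 8 genes are therefore given as a description with no p-value.

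The α-arrestins are adaptor proteins that carry an arrestin fold and bring ubiquitin ligases of the NEDD4 family to membrane proteins, which are then taken up and sorted in endosomes. Txnip, the best studied of them, also binds reduced thioredoxin and limits glucose uptake. MondoA (Mlxip) and ChREBP (Mlxipl) sense glucose metabolites, pair with Mlx and bind carbohydrate response elements, and Txnip and Arrdc4 are among their known target genes. ChREBP is best known in liver, where it drives genes of glycolysis and fat synthesis.

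RNA was measured on 8 one-colour Agilent arrays of a single slide. BMEL cells, a bipotential line of mouse embryonic liver progenitors, were kept in DIFF medium (n = 2 arrays), CM (n = 3) or NoRX medium (n = 3). The labels give no composition for a medium and do not spell out CM, DIFF or NoRX, while the series title names media conditioned by human amniotic epithelial cells. No time in medium is given, all groups are of the same line, and nothing says that the arrays of a group came from separate cultures. The adjusted p-values below thus measure only the spread between arrays, which may be technical. The titles number the DIFF arrays 1 and 2, whereas another label calls both replicate 1.

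Spots well above background made up 50.8% to 53.5% of spots on 7 arrays and 46.4% on DIFF replicate 2. Arrays of a group correlated across genes at 0.960 in DIFF, 0.991 to 0.993 in CM and 0.993 to 0.994 in NoRX. Slide row was read from the names of the scanner output, not from a sample label. By these names row 1 held CM replicate 1 and the NoRX arrays, and row 2 held the other 4 arrays. Of 14 liver progenitor markers, 12 were well above background on all 8 arrays, and Dlk1 and Tbx3 did not pass the filter. The summed level of those 12 was 1180 to 1434 in DIFF, 1262 to 1353 in CM and 1661 to 1760 in NoRX, as multiples of the array's 75th percentile. Such linear sums follow the brightest genes, here Krt18, Krt19 and Krt8. The 12 did not move together: 3 were called higher and 8 lower in DIFF than in NoRX, and 5 higher and 6 lower in CM. Over all genes 16.5% and 28.8% were called in the first comparison, 28.6% and 27.2% in the second (limma, adjusted p under 0.05). Of 8 fibroblast and stellate markers, Lrat, Pdgfrb, Lum and Thy1 were well above background on no array. The summed level of the other 4 was 0.199 to 0.274 in DIFF, 1.37 to 1.68 in CM and 0.448 to 0.493 in NoRX on the same scale. Des carried most of the CM sum. The summed level of 3 measured leukocyte markers was 9.73 to 11.2 in DIFF, 15.6 to 16.4 in CM and 14.9 to 16.4 in NoRX, and that of 5 endothelial markers 8.55 to 9.73, 10.5 to 11.4 and 10.1 to 12.2. For 3 erythroid markers the sums were 0.898 and 7.28 on the 2 DIFF arrays, 0.512 to 0.584 in CM and 0.611 to 0.830 in NoRX. The sum of 7.28 was mostly Gata1, whose log2 level was 2.69 on DIFF replicate 2 and -7.61 on DIFF replicate 1. The part of other cell types in the results below was not tested. In bulk RNA, fewer cells that express a gene and less RNA per cell cannot be told apart.

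The promoter windows of Txnip and Arrdc4 are shown because these 2 genes had the largest differences of the 8 and are known targets of the same glucose-responsive factors, and that of Mlxipl because it encodes one of those factors. Each window runs from 250 bases before to 50 bases after the transcription start annotated in RefSeq, on assembly GRCm38.p6. The Txnip window is chr3:96557707-96558006 (plus strand), the Arrdc4 window chr7:68749189-68749488 (minus strand) and the window of the upstream Mlxipl start chr5:135089640-135089939 (plus strand). Capitals mark an E-box (CACGTG), a FOXO core (GTAAACA) and a pair of E-box-like elements 5 bases apart in the same orientation (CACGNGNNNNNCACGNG). Pairs with elements in opposite orientation were not searched for, so this search is no census of carbohydrate response elements.
Txnip: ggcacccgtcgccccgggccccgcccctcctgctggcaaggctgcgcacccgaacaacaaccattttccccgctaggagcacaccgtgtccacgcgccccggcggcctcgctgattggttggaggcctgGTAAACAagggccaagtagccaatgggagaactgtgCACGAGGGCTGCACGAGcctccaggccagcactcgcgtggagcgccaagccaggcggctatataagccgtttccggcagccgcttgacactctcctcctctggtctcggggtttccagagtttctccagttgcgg
Arrdc4: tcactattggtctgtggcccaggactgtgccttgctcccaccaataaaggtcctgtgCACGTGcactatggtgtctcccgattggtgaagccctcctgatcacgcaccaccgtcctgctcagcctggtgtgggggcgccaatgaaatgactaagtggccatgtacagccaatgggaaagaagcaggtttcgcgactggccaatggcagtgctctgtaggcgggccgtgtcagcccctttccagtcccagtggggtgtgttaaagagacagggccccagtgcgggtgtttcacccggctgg
Mlxipl: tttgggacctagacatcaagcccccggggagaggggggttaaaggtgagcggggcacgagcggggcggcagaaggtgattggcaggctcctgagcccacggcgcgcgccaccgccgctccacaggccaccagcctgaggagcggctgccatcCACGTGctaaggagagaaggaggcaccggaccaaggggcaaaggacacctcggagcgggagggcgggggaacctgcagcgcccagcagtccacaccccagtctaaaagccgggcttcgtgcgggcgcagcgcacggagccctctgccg
The paired element of Txnip reads CACGAGGGCTGCACGAG and begins at position -85 from the start. All motifs were searched on both strands, and none of those marked in capitals overlaps another. The paired element was found in 16 of 32851 mouse promoter windows of the same length (0.0487%), and of the 8 genes in Txnip alone. The E-box was found in 7.15% of windows, with a match in Arrdc4 at position -193 and in the upstream Mlxipl window at -98. Txnip held a FOXO core at -121, a motif present in 3.65% of windows. The CCAAT box (CCAAT), present in 37.4% of windows, occurred 6 times in the Arrdc4 window, 3 times in that of Arrdc2 and 2 times in those of Txnip and Mlxip. Windows were found for 7 of the 8 genes, Klf10 being the exception. A match describes letters only, and the window holds no measurement of binding.

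Levels are log2 processed signals minus the 75th percentile of the array, for the probe of each gene with the highest mean signal unless another is named. The 8 genes were covered by 14 probes on 23 spots, and 13 of the 14 probes were well above background on at least 2 arrays. The probe with the highest mean of each gene was well above background on all 8 arrays, and no spot was saturated. Levels of different probes were not set against each other, since probes differ in brightness. Differences are group means with the SE of a limma fit over all 8 arrays.

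**Figure D1:**
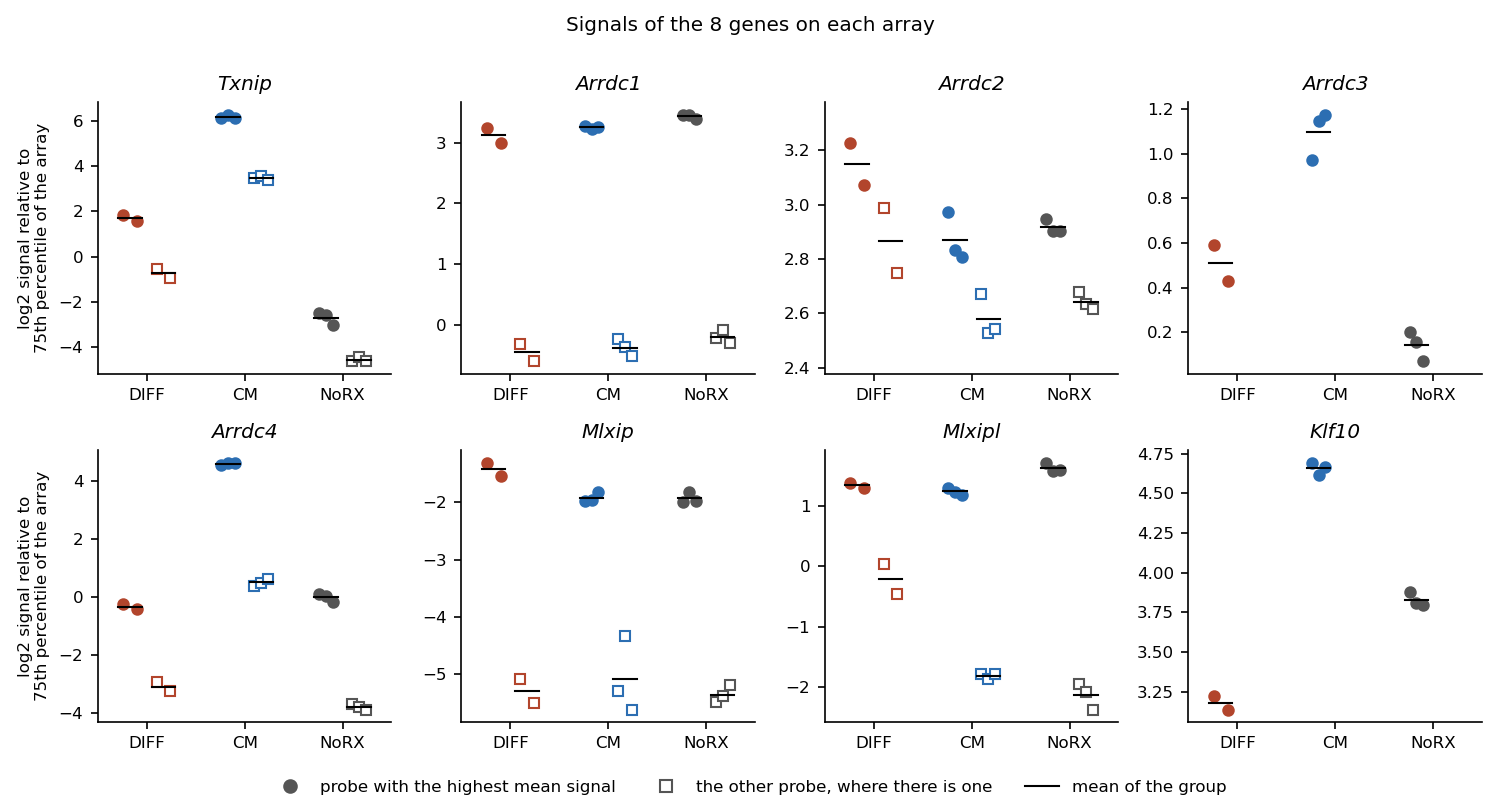
Each point is the log2 signal relative to the 75th percentile of its array for DIFF (n = 2), CM (n = 3) and NoRX (n = 3), with filled circles for the probe with the highest mean signal, open squares for the other probe and lines for group means; the vertical scales differ between panels. Txnip and Arrdc4 stand highest on the 3 CM arrays by both probes, while the brighter probes of Arrdc1, Arrdc2 and Mlxip differ far less between groups.

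Txnip, which binds thioredoxin and lowers glucose uptake, had the widest range of the 8 genes. Its processed signal was 2710 and 2799 on the DIFF arrays, 58115, 61799 and 60241 on the CM arrays, and 134, 125 and 86.3 on the NoRX arrays. After scaling, its log2 level was 1.86 and 1.57 in DIFF, 6.16, 6.29 and 6.14 in CM, and -2.52, -2.57 and -3.03 in NoRX. The order was CM above DIFF above NoRX, and no array of a group came near one of another. The difference between CM and NoRX was 8.90 ± 0.13 (SE), a 478-fold higher signal in CM. DIFF exceeded NoRX by 4.42 ± 0.15, or 21.4-fold, and differed from CM by -4.48 ± 0.15, or 22.4-fold lower. Among the 14044 genes tested, Txnip ranked 2 by size of difference among genes higher in CM than in NoRX and 131 among those higher in DIFF than in NoRX. From the lowest difference of DIFF from CM upward it ranked 89.

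The other Txnip probe gave the same order. Its levels were -0.53 and -0.95 in DIFF, 3.48, 3.59 and 3.39 in CM, and -4.62, -4.46 and -4.65 in NoRX, where 2 of the 3 arrays were well above background. Here CM exceeded NoRX by 8.07 ± 0.11, DIFF exceeded NoRX by 3.84 ± 0.13, and DIFF differed from CM by -4.23 ± 0.13. With normexp background correction in place of the scanner's subtraction, this dimmer probe gave 6.28, 2.37 and -3.91 for the same differences. Within slide row 1 the difference between CM and NoRX was 8.86 by the brighter probe, and within row 2 that between DIFF and CM was -4.50. No row held both DIFF and NoRX arrays.

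Arrdc4 is the α-arrestin closest to Txnip in known regulation, a MondoA target that also limits glucose uptake. Its level was -0.26 and -0.43 in DIFF, 4.53, 4.61 and 4.62 in CM, and 0.10, 0.02 and -0.17 in NoRX. All 3 CM arrays stood far above the rest, and the DIFF arrays lay just below the NoRX arrays. CM exceeded NoRX by 4.60 ± 0.08, or 24.3-fold, which ranked 16 among genes higher in CM. DIFF differed from CM by -4.93 ± 0.09, or 30.5-fold lower, ranking 57 from the lowest. Between DIFF and NoRX the difference was -0.33 ± 0.09.

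A second Arrdc4 probe was spotted 10 times on each array, which gives the technical spread within an array. The SD over its 8 to 10 usable spots was between 0.027 and 0.222 on the log2 scale. Its means were -2.92 and -3.25 in DIFF, 0.39, 0.48 and 0.63 in CM, and -3.70, -3.77 and -3.88 in NoRX. CM again stood highest, 4.28 ± 0.12 above NoRX, and DIFF differed from CM by -3.59 ± 0.13. For DIFF against NoRX, however, this probe gave 0.70 ± 0.13, the opposite sign to the single-spot probe, and its DIFF and NoRX arrays did not overlap either. The mean of both probes put DIFF 0.18 above NoRX. The direction of Arrdc4 between DIFF and NoRX is thus not settled by these probes. The array files label the 2 probes with different RefSeq transcripts, and which transcripts they read was not analysed.

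**Figure D2:**
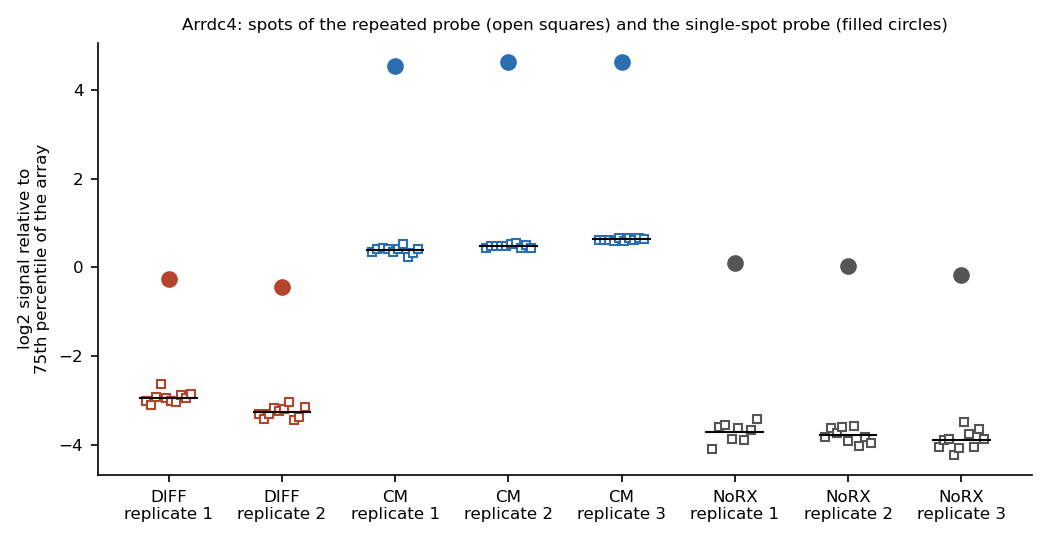
For each array from DIFF to CM to NoRX, open squares give the log2 signal of each usable spot of the repeated Arrdc4 probe, the line their mean, and the filled circle the single-spot probe. Spots of the repeated probe lie between -3.42 and -2.61 on the DIFF arrays, and between -4.22 and -3.41 on the NoRX arrays, whereas the single-spot probe is lower in DIFF than in NoRX.

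Arrdc3, an adaptor known for the uptake of the β2-adrenergic receptor and of integrin β4, followed the same order as Txnip over a narrower range. Its level was 0.59 and 0.43 in DIFF, 0.97, 1.15 and 1.18 in CM, and 0.20, 0.16 and 0.07 in NoRX. The groups did not overlap, with CM highest, DIFF between and NoRX lowest. CM exceeded NoRX by 0.96 ± 0.08, or 1.94-fold, and DIFF exceeded NoRX by 0.37 ± 0.09. DIFF differed from CM by -0.59 ± 0.09. With slide row as a block the difference between DIFF and NoRX was 0.18.

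Arrdc1, which takes part in the budding of small vesicles from the cell surface together with Tsg101, was nearly level. The values were 3.24 and 3.00 in DIFF, 3.27, 3.23 and 3.26 in CM, and 3.46, 3.45 and 3.38 in NoRX. NoRX was the highest group, and the DIFF and CM arrays overlapped. CM differed from NoRX by -0.18 ± 0.07 and DIFF from NoRX by -0.31 ± 0.07. DIFF differed from CM by -0.14 ± 0.07, which became 0.03 when arrays were centred on their medians. Taken singly, DIFF replicate 1 differed from NoRX by -0.19 and DIFF replicate 2 by -0.43. The dimmer probe gave -0.17 ± 0.10 for CM against NoRX, with overlapping arrays, and -0.25 ± 0.12 for DIFF against NoRX.

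Arrdc2 had 2 probes that agreed closely. By the brighter, its level was 3.23 and 3.07 in DIFF, 2.97, 2.83 and 2.81 in CM, and 2.95, 2.90 and 2.90 in NoRX. The CM and NoRX arrays overlapped, and the DIFF arrays lay above both. DIFF exceeded NoRX by 0.23 ± 0.07 and CM by 0.28 ± 0.07, while CM and NoRX differed by -0.05 ± 0.07. The dimmer probe gave 0.23 ± 0.08 and 0.29 ± 0.08 for the same DIFF differences, of which that from NoRX came to 0.11 on DIFF replicate 2 alone and 0.35 on replicate 1 alone. Arrdc2 thus had its highest group in DIFF, where Txnip, Arrdc3 and Arrdc4 had theirs in CM.

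**Figure D3:**
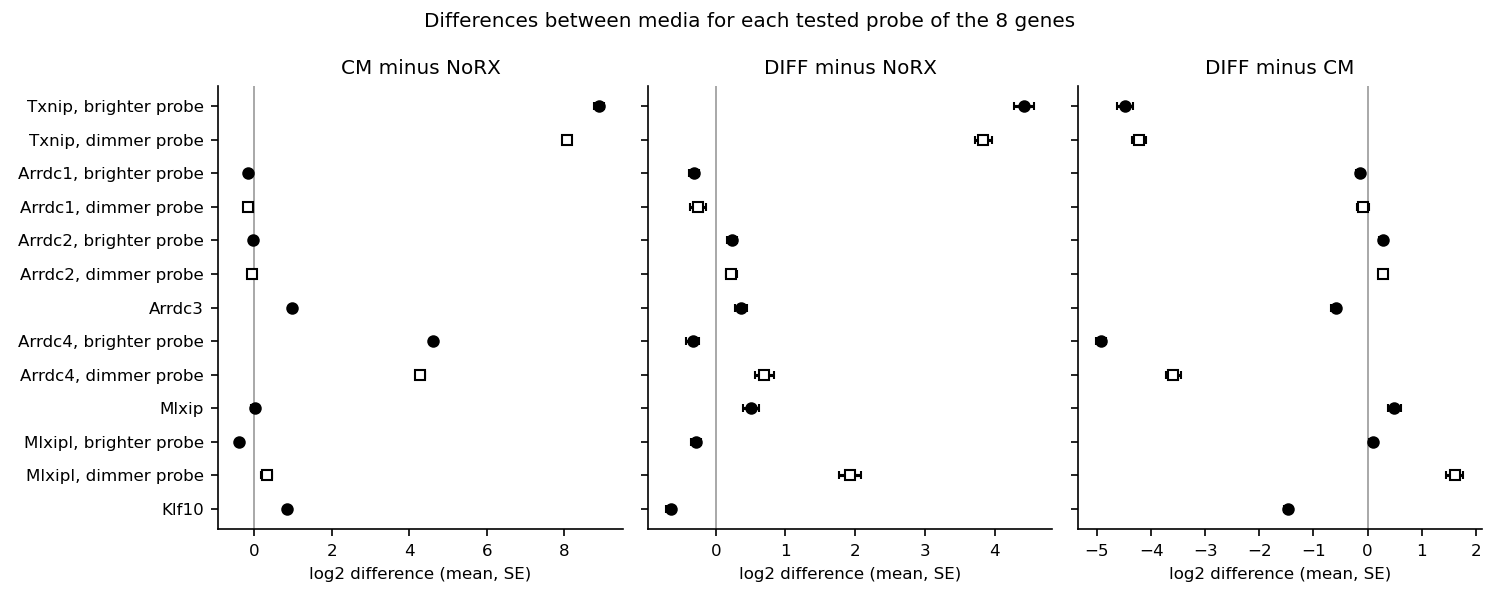
Log2 differences between group means with SE for the 13 tested probes of the 8 genes, in CM minus NoRX, DIFF minus NoRX and DIFF minus CM; filled circles are the brighter probe and open squares the dimmer probe of a gene, and the horizontal scales differ. The Txnip and Arrdc4 probes lie between 4.28 and 8.90 for CM minus NoRX, and the probes of Arrdc4 and of Mlxipl fall on opposite sides of 0 for DIFF minus NoRX.

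None of the probes of the 3 factor genes approached the range of Txnip. Mlxip, encoding MondoA, had a level of -1.31 and -1.55 in DIFF, -1.98, -1.97 and -1.83 in CM, and -2.01, -1.82 and -1.98 in NoRX. CM and NoRX, the 2 groups furthest apart in Txnip, overlapped in Mlxip with a difference of 0.01 ± 0.11. The arrays read RNA only, and a part of the MondoA protein in the Txnip difference was not tested. DIFF exceeded NoRX by 0.50 ± 0.12 and CM by 0.49 ± 0.12. A further Mlxip probe was well above background on 1 array only, CM replicate 2, and was not used.

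Mlxipl, encoding ChREBP, was lower in both DIFF and CM than in NoRX by its brighter probe. The levels were 1.39 and 1.31 in DIFF, 1.31, 1.25 and 1.18 in CM, and 1.73, 1.59 and 1.61 in NoRX. CM differed from NoRX by -0.39 ± 0.06 and DIFF from NoRX by -0.29 ± 0.07, while DIFF exceeded CM by 0.11 ± 0.07. The dimmer probe went the other way. It read 0.04 and -0.45 in DIFF, -1.79, -1.87 and -1.80 in CM, and -1.95, -2.08 and -2.38 in NoRX, so that DIFF exceeded NoRX by 1.93 ± 0.16 and CM exceeded NoRX by 0.32 ± 0.14. Both probes put DIFF above CM, by 1.61 ± 0.16 in the dimmer one. The mean of both probes gave -0.04 for CM against NoRX and 0.82 for DIFF against NoRX. Mlxipl has 2 RefSeq starts among the promoter windows, but the array files label both probes with the same RefSeq transcript. Which transcripts each probe reads was not analysed here.

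Opposite directions between the probes of a gene were counted over the array as a whole. Of 3643 genes with several tested probes, non-overlapping arrays in opposite directions occurred in 9.33% (CM against NoRX), 3.16% (DIFF over NoRX) and 8.26% (DIFF compared with CM). Of the 5 genes here with several tested probes, this held for Mlxipl in the first comparison, for Mlxipl and Arrdc4 in the second, and for none in the third.

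Klf10 encodes a zinc-finger repressor that TGF-β induces and that glucose induces through ChREBP in rodent hepatocytes. Its level was 3.22 and 3.14 in DIFF, 4.69, 4.62 and 4.67 in CM, and 3.88, 3.81 and 3.80 in NoRX. CM was highest and DIFF lowest, with no overlap between groups. CM exceeded NoRX by 0.83 ± 0.05, or 1.78-fold. DIFF differed from NoRX by -0.65 ± 0.06 (1.57-fold lower) and from CM by -1.48 ± 0.06 (2.79-fold lower). Klf10 and Txnip thus shared CM as their highest group but placed DIFF on opposite sides of NoRX.

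Set side by side, 4 of the 8 genes were higher in CM than in NoRX on every array (Txnip, Arrdc3, Arrdc4, Klf10), 2 were lower (Arrdc1, Mlxipl) and 2 overlapped. Over all genes with values on these arrays, 36.3% were higher without overlap, 34.8% lower, and 71.1% either. DIFF arrays were higher than NoRX arrays without overlap for 4 genes (Txnip, Arrdc2, Arrdc3, Mlxip) and lower for the other 4, against 23.1% and 37.2% of all genes and 60.3% in either direction. Arrdc4 and Mlxipl were among those 4 by the brighter probe and were higher without overlap by the other. In a count added after these values were seen, by the other tested probe where a gene has one, 6 genes were higher and 2 lower in this comparison, and in CM against NoRX 5 were higher, 0 lower and 3 overlapped. DIFF arrays were higher than CM arrays for 3 genes (Arrdc2, Mlxip, Mlxipl) and lower for 4 (Txnip, Arrdc3, Arrdc4, Klf10), against 29.8%, 41.1% and, either way, 70.9%. For Mlxipl by the brighter probe, the lowest DIFF array (1.31355) and the highest CM array (1.3135) were nearly equal. CM minus NoRX and DIFF minus NoRX share the NoRX arrays, and both DIFF comparisons share the DIFF arrays, so the 3 comparisons are not independent. Centring arrays on the median instead of the 75th percentile moved the small differences of DIFF from NoRX to -0.18 for Arrdc4, -0.16 for Arrdc1, -0.14 for Mlxipl and 0.38 for Arrdc2.

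Of 22 other known targets of MondoA and ChREBP, 19 were tested. In CM against NoRX, 4 rose, 4 fell and 11 missed the threshold, at a median difference of 0.08, against 28.6% higher and 27.2% lower (55.8% in all) and a median of 0.01 over all 14044 genes. With genes measured in only 1 of the 2 groups set to their bound, the list's median was 0, the value of Rgs16. That gene was well above background on 1 of 3 CM arrays, and its bound of -0.19 was set to 0. Pnpla3, encoding a lipase of lipid droplets, rose by 2.10 ± 0.17 (adjusted p = 4.89e-06, limma), and by 1.13 under normexp background correction, whose added offset narrows differences at low signals. Elovl6, a fatty acid elongase, rose by 0.53 ± 0.07. Me1, malic enzyme, rose by 0.32 ± 0.06. Fgf21, a hormone made by liver, was well above background on no CM array and all 3 NoRX arrays, at least 2.99-fold lower in CM (limma adjusted p = 0.00633), with a fitted log2 difference of -0.85 under normexp. Fasn, fatty acid synthase, differed by -0.80 ± 0.10 and Gpd1, glycerol-3-phosphate dehydrogenase, by -0.58 ± 0.09, and both fell. Pfkfb3, a regulator of glycolysis, differed by -0.40 ± 0.08, a call lost with slide row as a block. Hk2 (-0.05 ± 0.06), Acly (0.09 ± 0.06), Tkt (-0.01 ± 0.06) and Pklr (-0.03 ± 0.12), genes of glucose and lipid metabolism, did not pass the test in CM.

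In DIFF against NoRX, 2 of the 19 targets rose, 10 fell and 7 missed the threshold, at a median of -0.25. Over all genes 16.5% were higher, 28.8% lower (45.3% in all), and the median was -0.08. Khk, ketohexokinase, rose by 0.48 ± 0.08, a call that was lost with slide row as a block. Me1 differed by -1.14 ± 0.07, Hk2, a hexokinase, by -1.09 ± 0.07 and Gpd1 by -1.26 ± 0.10, and all 3 fell under every alternative run. Counts of calls in this comparison moved with the processing: 4 targets passed with slide row as a block, 6 with array weights and 7 (2 higher, 5 lower) with arrays centred on the median. That centring also turned the split of all called genes, with 54.8% of them higher in DIFF instead of 36.4%.

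In DIFF against CM, 5 targets rose, 9 fell and 5 did not pass (median -0.20), against 26.0% higher, 35.6% lower, 61.6% in all and a median of -0.09 over all genes. Pnpla3, well above background on 1 of 2 DIFF arrays and all 3 CM arrays, fell with a difference of -2.81 ± 0.20, or -0.98 under normexp. Me1 differed by -1.46 ± 0.07, Hk2 by -1.04 ± 0.07, Elovl6 by -0.70 ± 0.08 and Gpd1 by -0.68 ± 0.10, and these 4 fell. With array weights 9 targets passed, 2 higher and 7 lower. Centring on the median gave 56.8% higher among all called genes, against 42.2%.

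Of the 14 other genes whose promoter window held the paired E-box, 8 were tested. Between CM and NoRX 1 rose, 4 fell and 3 did not pass (median -0.20), a called share of 62.5% against 55.8% of all genes. Nfkb2, a subunit of NF-κB, rose by 0.49 ± 0.07 (limma adjusted p = 0.000252), and Fnip1, folliculin-interacting protein, differed by -0.44 ± 0.07 and fell (limma adjusted p = 0.000275). Of the other 3 that fell, Irak1bp1 lost its call under 9 alternatives, Man2b2 under 6 and Rbmxl1 under 2. Between DIFF and NoRX 1 fell and the other 7 did not pass (median -0.03, 12.5% called against 45.3%), the call being Fem1b at -0.24 ± 0.09, which 14 alternatives removed. Between DIFF and CM 3 rose and 1 fell (median 0.06, 50% called against 61.6%).

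**Figure D4:**
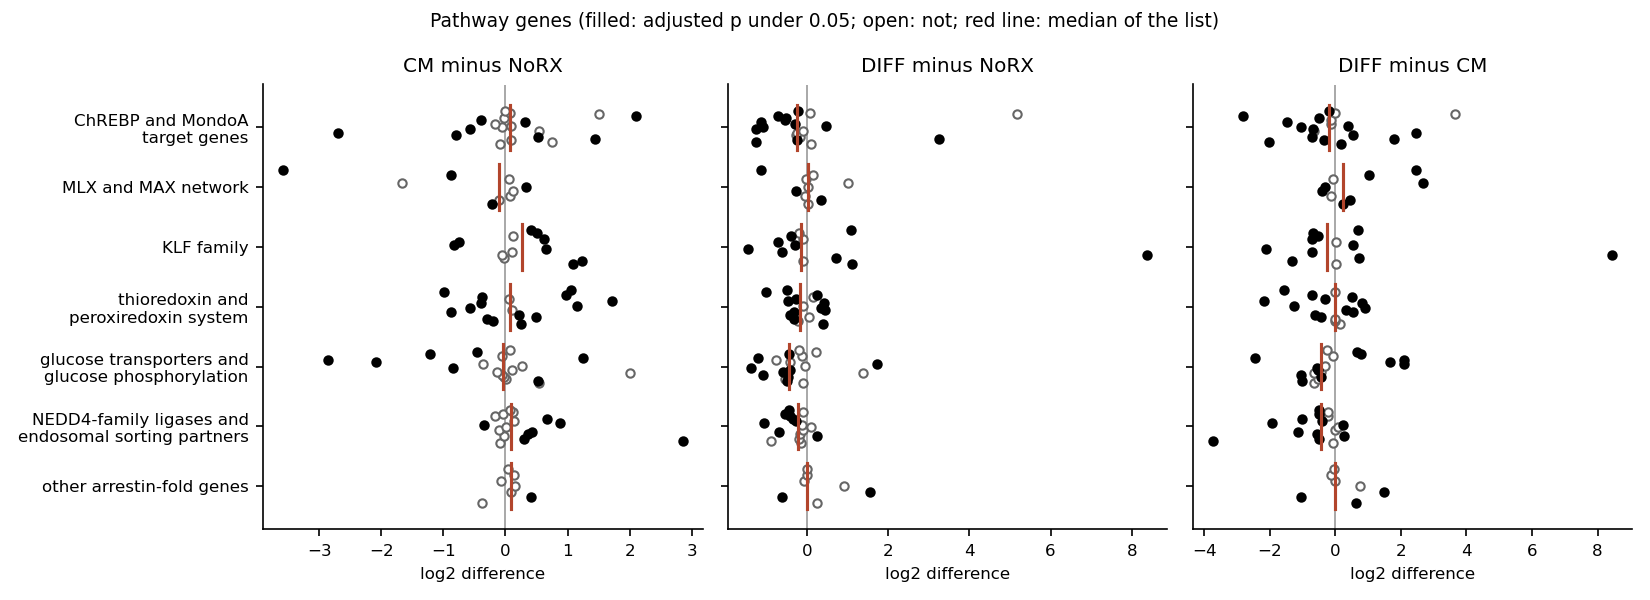
Each point is the log2 difference of a tested gene of a pathway list, for CM minus NoRX, DIFF minus NoRX and DIFF minus CM, with filled points past an adjusted p of 0.05 and red lines at list medians; genes measured in only 1 group are drawn at their fitted value, which is no bound. Target genes of ChREBP and MondoA lie on both sides of 0 in all 3 comparisons, and the far point of the KLF family in both DIFF comparisons is Klf15.

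Thioredoxin, the partner that Txnip binds, belongs to a system of 16 genes, all tested. In CM against NoRX 7 rose, 7 fell and 2 did not pass (median 0.08), so that 87.5% were called, against 28.6% higher, 27.2% lower and 55.8% in all over every gene tested. Srxn1, sulfiredoxin, which restores oxidised peroxiredoxins, rose by 1.71 ± 0.07 (limma adjusted p = 7.99e-08). Prdx5, a peroxiredoxin, rose by 1.15 ± 0.09, and the thioredoxin reductases Txnrd3 by 1.06 ± 0.05 and Txnrd1 by 0.97 ± 0.06. The mitochondrial reductase Txnrd2 differed by -1.00 ± 0.07 (limma adjusted p = 2.47e-06) and the peroxiredoxins Prdx2 by -0.87 ± 0.06 and Prdx4 by -0.58 ± 0.07, and these 3 fell. Txnrd1 and Txnrd2 thus moved apart in CM, but not in CM alone. The level of Txnrd1 was 4.51 and 4.37 in DIFF against 4.15, 4.21 and 4.20 in NoRX, while Txnrd2 and Txnrd3 were lower in DIFF than in NoRX.

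Txn1, the cytosolic thioredoxin that Txnip binds, was chosen after its values were seen. It differed by 0.05 ± 0.05 in CM against NoRX and did not pass (limma adjusted p = 0.427). It fell in DIFF, with differences of -0.27 ± 0.06 from NoRX and -0.33 ± 0.06 from CM, and both calls were lost with median centring. In DIFF against NoRX 5 genes of this system rose, 7 fell and 4 did not pass (median -0.16, 75% called against 45.3% of all genes). Txnrd2 differed by -1.00 ± 0.08 and fell here too. The count of 12 calls was 6 with median centring (5 higher, 1 lower) and 5 with slide row as a block (1 higher, 4 lower). In DIFF against CM 5 rose and 7 fell (median -0.02, 75% called against 61.6%). Srxn1 differed by -2.19 ± 0.08, Txnrd3 by -1.56 ± 0.06 and Prdx5 by -1.25 ± 0.10 and fell, while Prdx4 rose by 0.91 ± 0.07 and Prdx6 by 0.82 ± 0.07.

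Glucose transporters and the enzymes that phosphorylate glucose or release it formed a list of 21, of which 18 were tested. In CM against NoRX 2 rose, 5 fell and 11 did not pass (median -0.04), and 38.9% were called against 55.8% of all genes. Slc2a6, a transporter of the GLUT family, rose by 1.25 ± 0.09 (limma adjusted p = 1.96e-06), and G6pc3, a glucose-6-phosphatase, by 0.52 ± 0.06. Slc2a9, a GLUT family member that carries urate, differed by -1.21 ± 0.11 and fell (limma adjusted p = 1.01e-05). Slc2a4 (-2.08 ± 0.29) and Slc2a5 (-2.87 ± 0.49), the insulin-responsive and the fructose transporter, also fell, each being well above background on 1 of 3 CM arrays and on all 3 NoRX arrays, with differences of -0.93 and -1.01 under normexp. Slc2a1, whose protein Txnip is known to remove from the cell surface, was chosen after its values were seen. It differed by 0.10 ± 0.06 in CM and did not pass (limma adjusted p = 0.205).

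For DIFF relative to NoRX, 1 gene of this list rose, 8 fell and 9 did not pass (median -0.43, 50% called against 45.3%). Slc2a2, the liver glucose transporter, rose by 1.73 ± 0.21 (limma adjusted p = 8.68e-05). Slc2a6 (-1.20 ± 0.10), Hk2 (-1.09 ± 0.07) and Slc2a1 (-0.43 ± 0.07) fell, the call of Slc2a1 being lost with median centring and with slide row as a block. For DIFF relative to CM, 5 rose and 6 fell (median -0.44, 61.1% called against 61.6%). Slc2a2 rose by 2.10 ± 0.21 and Slc2a9 by 0.78 ± 0.12, while Slc2a6 (-2.45 ± 0.10), Hk2 (-1.04 ± 0.07) and G6pc3 (-1.00 ± 0.07) fell.

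Ligases of the NEDD4 family and the sorting proteins that act with α-arrestins numbered 16, all tested. In CM against NoRX 6 rose, 1 fell and 9 did not pass (median 0.09), and 43.8% were called, below the 55.8% of all genes. Smurf1, a ligase of TGF-β and BMP signalling, rose by 0.88 ± 0.08 (limma adjusted p = 1.39e-05) and Stam, an endosomal sorting adaptor, by 0.66 ± 0.06 (0.41 by the mean of its probes). Hecw2, another ligase, rose by 2.86 ± 0.44, with 3 CM arrays and 1 NoRX array well above background, and by 1.43 under normexp. Pdcd6ip, or ALIX, which helps bud vesicles, differed by -0.35 ± 0.06 and fell. In DIFF against NoRX 1 rose, 7 fell and 8 did not pass (median -0.23, 50% called against 45.3%), and Smurf1 fell with a difference of -1.07 ± 0.09 (limma adjusted p = 8.4e-06). That count of 8 calls was 2 with median centring, 4 with slide row as a block, 4 with array weights and 13 without DIFF replicate 1. In DIFF against CM 2 rose and 9 fell (median -0.45, 68.8% called against 61.6%), among them Smurf1 (-1.94 ± 0.09), Ndfip2, an activator of these ligases (-1.12 ± 0.18, or -0.69 under normexp), and Stam (-1.01 ± 0.07). Hecw2 also fell, with 1 of 2 DIFF arrays and all 3 CM arrays well above background, and its fitted difference ranged from -4.79 to -0.97 over the alternatives, the smallest under normexp.

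Among 8 other arrestin-fold genes 7 were tested, and the β-arrestins, which serve G-protein-coupled receptors, carried most of the changes. Arrb1 rose by 0.42 ± 0.06 in CM against NoRX (limma adjusted p = 0.000172), where it was the single call of the list (median 0.09, or 0.04 with genes at their bound; 14.3% called against 55.8% of all genes). This count was 2 or 3 under array weights, in a fit of CM and NoRX alone, with the DIFF arrays averaged, without spots of uneven background, and without either DIFF replicate. In DIFF against NoRX Arrb2 rose by 1.56 ± 0.11 and Arrb1 fell with a difference of -0.63 ± 0.07, and 5 did not pass (median 0.01, 28.6% called against 45.3%). Between DIFF and CM 2 rose and 1 fell (median -0.0039, 42.9% called against 61.6%), with Arrb2 at 1.47 ± 0.11 and Arrb1 at -1.04 ± 0.07. This count was 5 without DIFF replicate 2.

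The MLX and MAX network supplies the partners and rivals of MondoA and ChREBP, and 9 of its 11 genes were tested. In CM against NoRX 1 rose, 3 fell and 5 did not pass (median -0.11, 44.4% called against 55.8% of all genes). Mycn was well above background on all 3 NoRX arrays and on no CM array, at least 10.7-fold lower in CM (limma adjusted p = 8.37e-07), although the fitted log2 difference was -1.52 under normexp. Myc differed by -0.88 ± 0.06 and fell (limma adjusted p = 2.17e-06). With slide row as a block 2 genes were called, both lower. For DIFF relative to NoRX, 1 rose and 2 fell (median 0.01, 33.3% called against 45.3%), and each of these calls was lost under array weights. In DIFF against CM 5 rose and 2 fell (median 0.25, 77.8% called against 61.6%). Myc rose by 1.03 ± 0.07 and Mycn was at least 4.89-fold higher in DIFF (limma adjusted p = 1.46e-05), with a fitted log2 difference of 1.21 under normexp. This count was 4 with array weights. Mlx, the shared partner of MondoA and ChREBP, was chosen after its values were seen and passed in none of the 3 comparisons, with differences of 0.08 ± 0.07 (CM minus NoRX), -0.05 ± 0.08 (DIFF minus NoRX) and -0.13 ± 0.08 (DIFF minus CM).

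Of the 16 other KLF family genes 12 were tested. Between CM and NoRX 6 rose, 2 fell and 4 did not pass (median 0.26), and 66.7% were called, against 28.6% higher, 27.2% lower and 55.8% in all over every gene tested. Klf11, the closest relative of Klf10, rose by 1.10 ± 0.19 (limma adjusted p = 0.000619), or 0.57 under normexp, Klf2 by 0.65 ± 0.11 and Klf5 by 0.61 ± 0.09. Klf3 (-0.83 ± 0.06) and Klf4 (-0.75 ± 0.05) fell. In DIFF against NoRX 4 rose, 5 fell and 3 did not pass (median -0.14, 75% called against 45.3%). Klf11, unlike Klf10, rose here too, by 1.10 ± 0.21 (limma adjusted p = 0.00162). That call was lost with slide row as a block and with array weights. Between DIFF and CM it differed by 0.01 ± 0.21 and did not pass. Klf15, a glucocorticoid-induced regulator of gluconeogenesis, was well above background on both DIFF arrays and on none of the others, at least 83.5-fold higher than in NoRX (limma adjusted p = 3.76e-08) and at least 159-fold higher than in CM (limma adjusted p = 1.98e-08). These bounds hold for the background subtraction used here, and under normexp the fitted differences were 4.55 from NoRX and 4.81 from CM. Klf9, another glucocorticoid-induced member, rose by 1.09 ± 0.09, and Klf2 fell with a difference of -1.46 ± 0.12, or -0.82 under normexp. For DIFF relative to CM, 4 rose and 6 fell (median -0.26, 83.3% called against 61.6%), and Klf2 differed by -2.10 ± 0.12 (-1.35 under normexp). Klf10 was highest in CM and lowest in DIFF, an order of group means that several of these genes shared, among them Klf2, Klf5, Klf6 and Klf16. Klf9, Klf13 and Klf15 had their highest mean in DIFF, and Klf3 and Klf4 theirs in NoRX.

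The genes whose pattern over the 8 arrays was most like that of Txnip were named by Pearson correlation among 1379 genes with at least 2 log2 units between group means. With 3 groups, such a correlation reflects mainly the order and spacing of 3 means, and it is given without a p-value. For Txnip these were Naip1 (0.995), Csta2 (0.993), Abcc2 (0.991), Asgr2 (0.990), Clec10a (0.990) and Psmb8 (0.989). Abcc2, an export pump of bile canaliculi, and Clec10a were each well above background on 4 arrays only, and no difference is given for them. Asgr2, a subunit of the asialoglycoprotein receptor of hepatocytes, exceeded NoRX by 2.34 in CM and 1.45 in DIFF, and Psmb8, an immunoproteasome subunit, by 2.37 and 1.06. The 4 genes well above background on all 8 arrays spanned less between groups than Txnip did.

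For Arrdc4 the 6 most like genes were Phgr1 (0.998), Hsd11b1 (0.997), Bmp2 (0.996), Ceacam2 (0.996), Prl7d1 (0.996) and Lilr4b (0.995), of which the first 4 were well above background on all 8 arrays and exceeded NoRX by between 2.47 and 3.37 in CM. Hsd11b1, which regenerates active glucocorticoid in liver, exceeded NoRX by 3.37 in CM and differed by -0.02 in DIFF. Bmp2, a BMP ligand, exceeded NoRX by 2.67 in CM and differed by -0.46 in DIFF. Prl7d1 and Lilr4b were well above background on the 3 CM arrays only, and no difference is given for them. Txnip and Arrdc4 correlated with each other at 0.870. This value and the list of genes like Arrdc4 rest on the single-spot Arrdc4 probe, which put DIFF below NoRX. The repeated Arrdc4 probe put DIFF 0.70 ± 0.13 above NoRX, as in Txnip, and correlations with that probe were not computed.

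**Figure D5:**
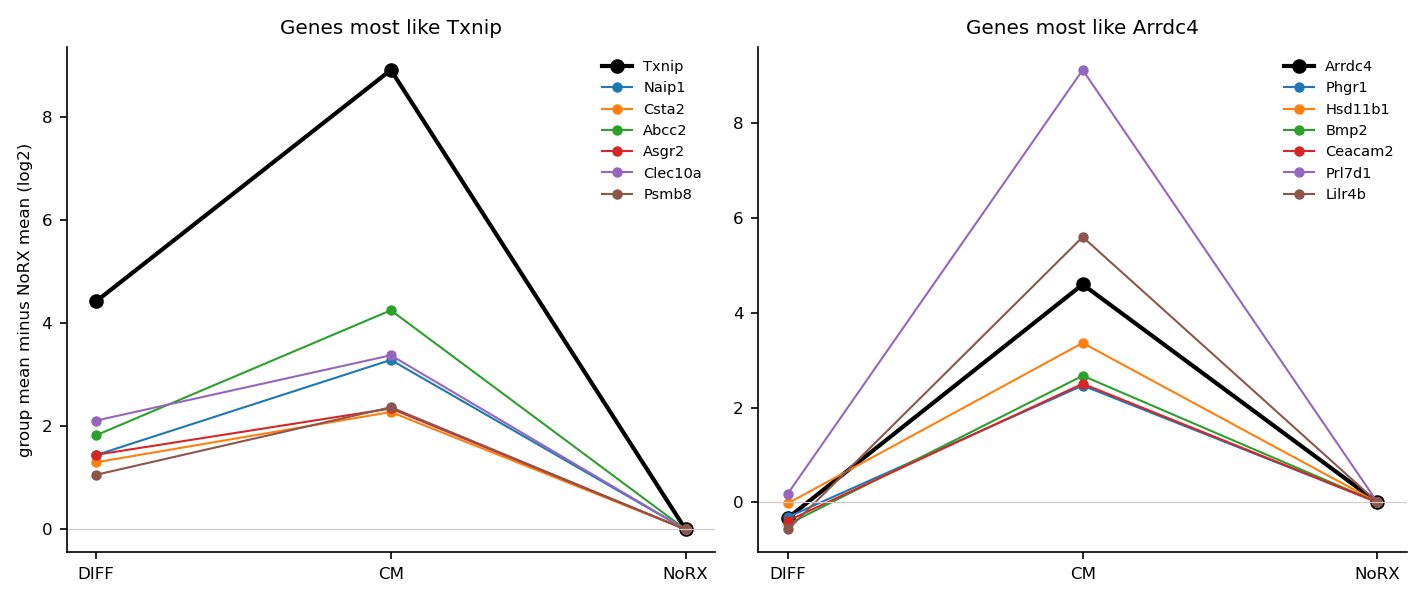
Group means minus the NoRX mean on the log2 scale, in the order DIFF, CM, NoRX, for Txnip and the 6 genes most like it and for Arrdc4 and the 6 genes most like it; lines join the means of a gene. Abcc2, Clec10a, Prl7d1 and Lilr4b were not well above background on all arrays and are drawn at the means of all their signals, while the other genes like Txnip lie between 1.06 and 1.45 above NoRX in DIFF and the other genes like Arrdc4 between -0.46 and -0.02.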

How the data were processed

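Agilent Feature Extraction 11.0.1.1 made the deposited spot intensities, as both the file headers and the processing notes of the submitters record. Per the file headers, the processed intensity is linear and background-subtracted. The deposited series table repeats it (largest difference 0). From these, log2 values minus each array's 75th percentile were computed, leaving out control and outlier spots and averaging the spots of a probe. Files hold 62976 spots per array. Of 55681 probes that are no controls, 27235 were named through their accession in a RefSeq table of assembly GRCm38.p6 and 28446 were not. They named 20660 genes. The array was designed on another assembly, so coordinates are given for RefSeq promoter windows only.

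A gene was represented by the probe with the highest mean signal among its probes well above background on at least 2 arrays (14044 genes, 18406 probes, 39 missing values). Differences of genes came from 1 limma 3.58.1 fit over all 8 arrays in R 4.3.3 (lmFit, then eBayes with trend). Its tests were two-sided, with Benjamini-Hochberg adjustment over the 14044 genes and a threshold of 0.05. The SE of a dimmer probe came from a fit of the same form over the 18406 probes. The fit was tested on simulated data. A fold is a bound where at least 1 array of 1 group measured a gene above background and no array of the compared group did. The brighter mean is then set against a floor. On each array this floor is the larger of the dim signal itself and the weakest signal of any probe above background. Every fold printed as a bound had all arrays of the brighter group above background. The number of arrays limits the precision. Figures were drawn with matplotlib 3.10.9.

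The 8 genes and all gene lists were chosen with earlier results of these data known. The rule for named genes took all 8 genes with all their probes, up to 4 called genes per list, direction and comparison with the largest differences, any tested ChREBP or MondoA target, and the 6 genes most correlated with Txnip and with Arrdc4, without clone or predicted names. Some named genes are not reported here. Slc2a1, Txn1 and Mlx were added after their values were seen. Alternatives were background correction (normexp, offset 50, on the median spot signal in place of the mean), median centring, quantile normalization, no filter or all arrays well above background, the mean of a gene's probes, slide row or replicate number as a block, array weights, only the groups compared, the DIFF arrays averaged, spots with uneven background left out, the deposited series table, and each array left out in turn. Fits within a slide row were added after seeing the data.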

Additional observations from a re-analysis of the deposited data

How the results depend on the processing

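The direction of Txnip, Arrdc3 and Klf10 was the same under every alternative run in all 3 comparisons, as was that of Arrdc4 in both comparisons with CM. By its brighter probe Txnip ranged from 8.22 to 8.99 for CM against NoRX, 3.71 to 4.57 for DIFF against NoRX and -4.63 to -4.32 for DIFF against CM, the lowest of the first 2 ranges being under normexp background correction. Arrdc4 ranged from 4.44 to 4.66 for CM against NoRX and from -5.01 to -4.26 for DIFF against CM. With the mean of the probes of a gene, DIFF against NoRX turned to 0.18 for Arrdc4 and to 0.82 for Mlxipl, since their probes have opposite directions. Under normexp the signs of Acacb (0.092), Hkdc1 (0.025) and Pnpla3 (0.15) turned for DIFF against NoRX and those of Klf12 (0.21) and Slc2a10 (0.19) for DIFF against CM, and the cause was not tested. Genes called in DIFF against NoRX were 3224 with slide row as a block (1117 higher, 2107 lower) and 3846 with array weights (1312 higher, 2534 lower), against 6368. Targets of ChREBP and MondoA called in that comparison were 7 with median centring, 4 with slide row as a block and 6 with array weights, against 12, and in DIFF against CM 9 with array weights, against 14. The cause of these shifts was not tested. Leaving out 1 array gave 6740 to 9315 genes called for CM against NoRX, 5249 to 7930 for DIFF against NoRX and 7780 to 9585 for DIFF against CM, and 8 to 10, 8 to 13 and 12 to 15 of those targets.

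Of the named calls, 46 of 57 for CM against NoRX, 27 of 61 for DIFF against NoRX and 49 of 75 for DIFF against CM were kept under every alternative. Deviations of same-numbered arrays from their group means correlated at -0.01, 0.01 and -0.05 between CM and NoRX. They correlated at -0.02 for both numbers between DIFF and NoRX, and at 0.09 and 0.17 between DIFF and CM. With 2 DIFF arrays the deviations mirror each other, so the 2 values of a DIFF comparison are not separate. These correlations cannot show whether arrays of the same replicate number were handled together. With the number as a replicate block, 7411, 5644 and 8140 genes were called in the 3 comparisons in the same order, and 8, 11 and 14 of the targets, and 9 of 221 named results lost their call. With the filter of all arrays well above background, genes measured on fewer arrays gave no value. The precision is limited by 2 DIFF arrays, by DIFF replicate 2 with fewer spots above background, and by slide rows that hold DIFF and NoRX apart, so that row and medium cannot be told apart in that comparison except through the CM arrays.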
